A study of Mus musculus with 14 samples.

Results

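The small RNAs described here are the 2 arms, 5p and 3p, of miR-155, miR-147, miR-9, miR-132 and miR-212, which makes 10 of the 1250 mouse mature miRNA lines counted in the series. They are listed there as mmu-miR-155-5p, mmu-miR-155-3p, mmu-miR-147-5p, mmu-miR-147-3p, mmu-miR-9-5p, mmu-miR-9-3p, mmu-miR-132-3p, mmu-miR-132-5p, mmu-miR-212-3p and mmu-miR-212-5p, and the prefix is left out from here on. The rule that picks them goes by name and uses no measured value: they are miRNAs known to be induced in macrophages by inflammatory signals that act through the transcription factor NF-kB. Earlier results of these data were known when it was set. No activity of NF-kB was measured in these libraries, so that description is background. Small RNA was sequenced from mouse macrophages, with bone marrow as the source and excised bone as the tissue in the labels. There were 4 exosome libraries of stimulated macrophages with IL4 in their titles, 4 exosome libraries of control (wild type) macrophages, 3 cell lysate libraries of IL4-stimulated macrophages and 3 cell lysate libraries of control (wild type) macrophages. Exosomes are small membrane vesicles released into the medium, and here they were purified from culture supernatant on an OptiPrep density gradient. IL4 is the cytokine that drives alternative activation of macrophages. The strain, the age and sex of the mice, and the dose and length of the IL4 treatment, are not stated in the labels.

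miRNAs of this kind are cut from hairpin precursors, and either strand of the hairpin can be loaded into an Argonaute protein, where bases 2 to 8, the seed, pair with target mRNAs. miR-155 comes from the non-coding host transcript Mir155hg, rises in macrophages exposed to Toll-like receptor ligands, and represses the signalling inhibitors Socs1 and Inpp5d. miR-147 is induced by Toll-like receptors and dampens cytokine output in mouse macrophages. miR-9 is best known from the nervous system, is induced by endotoxin in human monocytes and represses NFKB1 there. miR-132 and miR-212 are made from 1 primary transcript and respond to CREB as well as to inflammatory signals.

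Every exosome library was shallow. The counts per library summed to between 28417 and 411671 in exosomes and to between 3941480 and 6792079 in lysates. A single count was therefore worth 2.43 to 35.2 counts per 1000000 (CPM) in exosomes and 0.147 to 0.254 CPM in lysates. The macrophage and myeloid marker miRNAs together took 21.4% to 31.8% of all counts in exosomes with IL4, 21.8% to 28.9% in control exosomes, 34.3% to 44.7% in lysates with IL4 and 28.5% to 34.8% in control lysates. Most of that sum is miR-21a-5p, and miR-223-3p and miR-223-5p, the more myeloid-restricted members, were lower with IL4 in lysates (log2 fold changes -1.24 and -2.11, both called). Several markers of other cell types were far higher in exosomes than in lysates. The erythroid list summed to 1.44% to 2.07% of counts in exosomes with IL4 and 1.98% to 3.43% in control exosomes, while no lysate exceeded 0.0030%. The endothelial list took 0.41% to 1.59% in exosomes with IL4 and 0.69% to 2.75% in control exosomes, and at most 0.0034% in lysates. The epithelial list took 0.036% to 10.5% in exosomes with IL4 and 0.085% to 4.89% in control exosomes, and at most 0.027% in lysates. Within it miR-203-3p and miR-205-5p were called higher in exosomes under both treatments, and miR-200a-3p, miR-200b-3p and miR-200c-3p were not called. The lymphocyte marker miR-150-5p took 0.064% to 0.137% in exosomes with IL4 and 0.066% to 0.187% in control exosomes, and at most 0.0028% in lysates. The stromal list took 0.150% to 0.366% in exosomes with IL4, 0.221% to 0.407% in control exosomes and at most 0.041% in lysates. The library titles carry dates, with 1 IL4 and 1 control library for each date within a compartment and no date shared between compartments. The labels do not say whether each library is a separate culture or mouse. The p-values therefore rest on a library-to-library spread that may be technical in origin.

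The mature sequences of the members on which the results turn are given below from RefSeq (build GRCm38.p6), in 5′ to 3′ direction with the seed in capitals, since the seed and the arm define which molecule was counted.
miR-155-5p: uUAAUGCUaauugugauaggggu
miR-155-3p: cUCCUACCuguuagcauuaac
miR-147-5p: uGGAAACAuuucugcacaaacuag
miR-9-5p: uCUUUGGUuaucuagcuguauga
miR-9-3p: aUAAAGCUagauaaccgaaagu
miR-132-3p: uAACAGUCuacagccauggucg
miR-212-3p: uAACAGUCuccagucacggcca
Of the 10 members, 9 matched a RefSeq entry, and miR-147-3p is named only. miR-132-3p and miR-212-3p have the same seed and the same base at 17 of 22 positions. Counted from the 5′ end with the base of miR-132-3p first, they differ by A10C, C14U, U17C, U20C and G22A. No other mature mouse miRNA in the RefSeq table shares a seed with any of the 9 matched members.

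In GRCm38, miR-155-5p lies at chr16:84714143-84714165 (+), in an exon of Mir155hg. miR-147-5p lies at chr2:122640814-122640837 (+), in an exon that is annotated as untranslated sequence of the protein-coding gene AA467197. The Mir212 hairpin ends 203 bases before the Mir132 hairpin starts, both within introns of the non-coding transcript 1700016P03Rik. miR-212-3p is at chr11:75173443-75173464 (+) and miR-132-3p at chr11:75173723-75173744 (+). The same miR-9-5p sequence is encoded at 3 loci, in an intron of Gm3764 on chromosome 3, in an intron of Mir9-3hg on chromosome 7 and in an exon of C130071C03Rik on chromosome 13, and the counts cannot tell these apart.

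The members together were a small share of all counts. They took 0.040% to 0.096% of the counts in exosomes with IL4, 0.077% to 0.107% in control exosomes, 0.020% to 0.034% in lysates with IL4 and 0.024% to 0.061% in control lysates. miR-155-5p supplied 7286 of the counts over the 14 libraries and was present in every library. By CPM it stood between rank 93 and rank 157 of the 1250 lines in every library. miR-155-3p, the opposite arm, had 1 count in all, in a lysate with IL4.

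**Figure D1:**
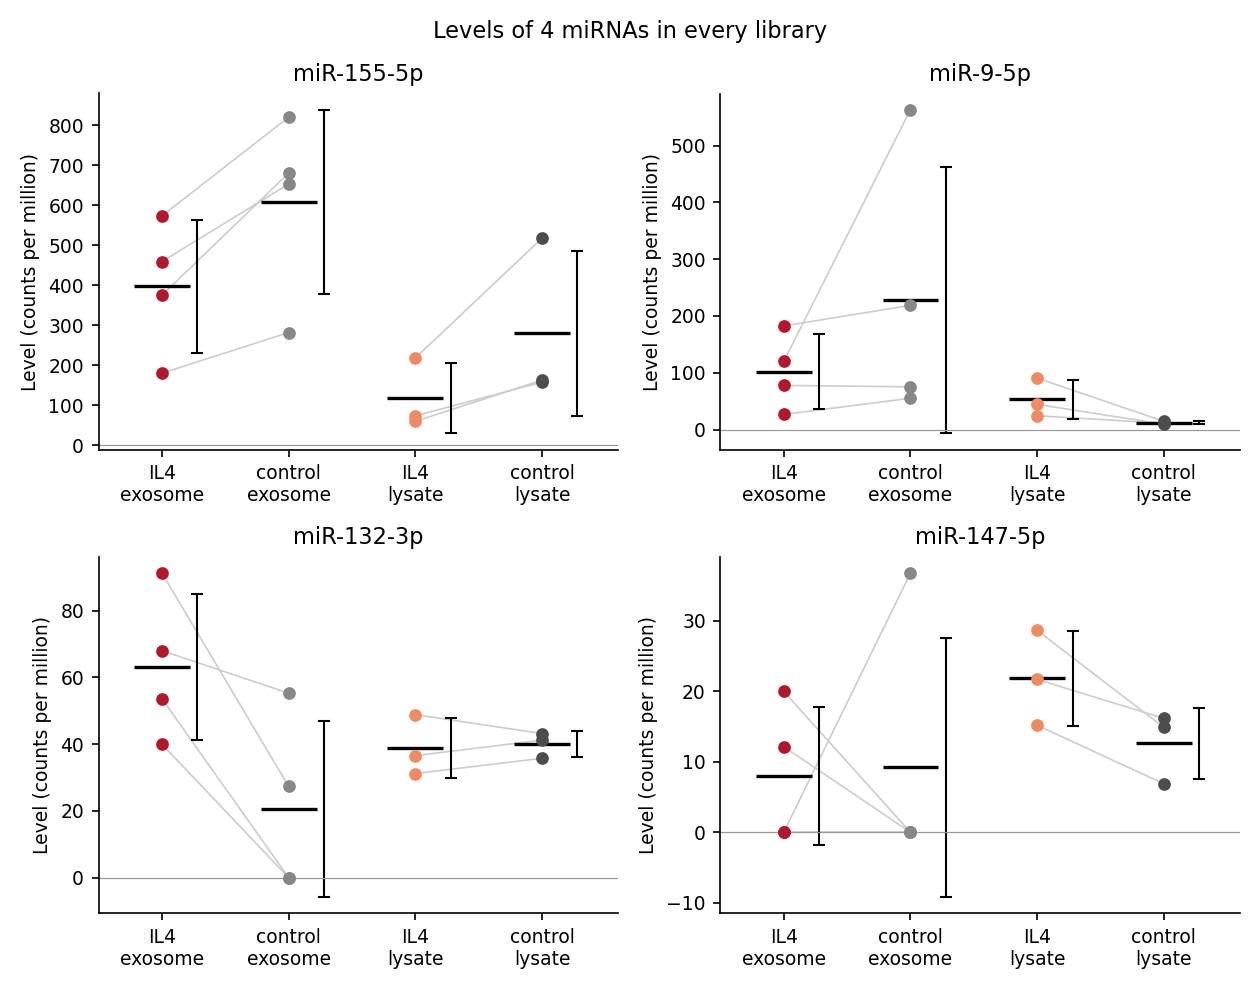
CPM of 4 members in each library, by group, with exosomes with IL4 and control exosomes on the left of each panel and lysates with IL4 and control lysates on the right. Points are libraries, lines join the IL4 and control library of 1 date, black bars give the mean, and the bar beside each group gives the SD, which runs below 0 in some exosome groups. The miR-9-5p points of lysates with IL4 (24.4 to 90.7 CPM) lie above those of control lysates (9.57 to 14.7 CPM), while miR-155-5p points overlap between groups although every joining line is lower at its IL4 end. Dates were not taken to pair the exosomes.

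In lysates, the question was which of these miRNAs differ between IL4-stimulated and control macrophages. miR-9-5p was higher with IL4, and in the fit without a date term it was the 1 member called, of 9 tested. At the same threshold (edgeR quasi-likelihood test, Benjamini-Hochberg adjusted p at or under 0.05 over 443 lines), 7.22% of all lines were called in either direction, 5.87% as higher and 1.35% as lower. The other member, miR-155-3p, did not pass the filter on low counts. The median log2 fold change of the 9 members was 0.51, with 8 above 0, and that of all tested lines was 0.00090. With date as a block, miR-155-5p (lower) and miR-147-5p (higher) were called beside miR-9-5p, where 50 of the 443 lines were called. Same-date lysates deviated together (correlations 0.35 to 0.73), so dates were taken to pair them. The fit without a date term leaves that pairing out.

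miR-9-5p was measured at 24.4, 44.4 and 90.7 CPM in lysates with IL4 (143, 175 and 466 counts), against 11.1, 9.57 and 14.7 CPM in control lysates (64, 65 and 81 counts). Every IL4 lysate was above every control lysate, and the ratio within a date ran from 2.20 to 6.17. The share of all lines whose lysate groups separate in this way is not given here. In bulk lysates, more cells that hold a miRNA and more of it per cell cannot be told apart. The fitted difference was a log2 fold change of 2.45 (SE 0.54, 95% interval 1.20 to 3.69, 5.45-fold, edgeR adjusted p = 0.0316), and with date as a block it was 2.21 (SE 0.30, adjusted p = 0.00221). Without 1 library, in fits with no date term, the value stayed positive but the edgeR call was lost in 5 of 6 cases. It was 2.62 (adjusted p = 0.106) without IL4 lysate replicate 2 and 1.64 (0.0974) without IL4 lysate replicate 3, and it was 2.33 (0.101), 2.37 (0.249) and 2.65 (0.101) without control lysate replicates 1, 2 and 3 in turn. The call was also lost with library-size scaling (2.17, adjusted p = 0.0531) and in a fit over all 14 libraries (2.41, adjusted p = 0.292).

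For a list of 6 miRNAs of the nervous system, where miR-9 is best known, the lysate groups overlapped. It is called the neuronal list here, although its members need not be restricted to neurons. The summed level was 9.40 to 11.7 CPM in lysates with IL4 and 8.69 to 14.5 CPM in control lysates. The defining neuronal miRNA miR-124-3p had 3 counts over the lysates with IL4 and 0 over the control lysates. In the same order, miR-218-5p had 15 and 4 counts, miR-219a-5p 12 and 37, and miR-129-5p 45 and 83. miR-138-5p had 83 and 83, and miR-124-5p 0 and 1. The listed miRNAs thus went in different directions, which the sum does not show. The 3p arm of miR-9 had 24, 19 and 68 counts in lysates with IL4 (4.10, 4.82 and 13.2 CPM), against 8, 31 and 18 counts in control lysates (1.39, 4.56 and 3.27 CPM). The groups overlapped for miR-9-3p although each date had the higher value with IL4, and its log2 fold change of 1.48 (SE 0.69, 95% interval -0.10 to 3.06) had an edgeR adjusted p of 0.382. With 1 library left out it covered 0.55 (without IL4 lysate replicate 3) to 1.96.

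miR-155-5p ran the other way at every date, while its level differed widely between dates. It was at 218, 73.3 and 59.4 CPM in lysates with IL4 (1275, 289 and 305 counts), against 518, 157 and 163 CPM in control lysates (2977, 1069 and 896 counts). The libraries of replicate 1 were the highest in both groups, so that IL4 lysate replicate 1 exceeded control lysate replicates 2 and 3, and the groups overlapped. Within a date the IL4 library had 0.365 to 0.466 times the level of the control library. Across dates the log2 fold change was -1.06 (SE 0.54, 95% interval -2.30 to 0.17), with an edgeR adjusted p of 0.463. With date as a block the log2 fold change was -1.07 (SE 0.15) and the edgeR adjusted p was 0.00221, so it was called there. It was also called with no date term and no filter on low counts (-1.09, edgeR adjusted p = 0.00456), and in none of the other 10 alternatives. Leaving out control lysate replicate 1, the library with the highest level, gave -0.42, and leaving out IL4 lysate replicate 1 gave -1.73 (edgeR adjusted p = 0.0831).

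**Figure D2:**
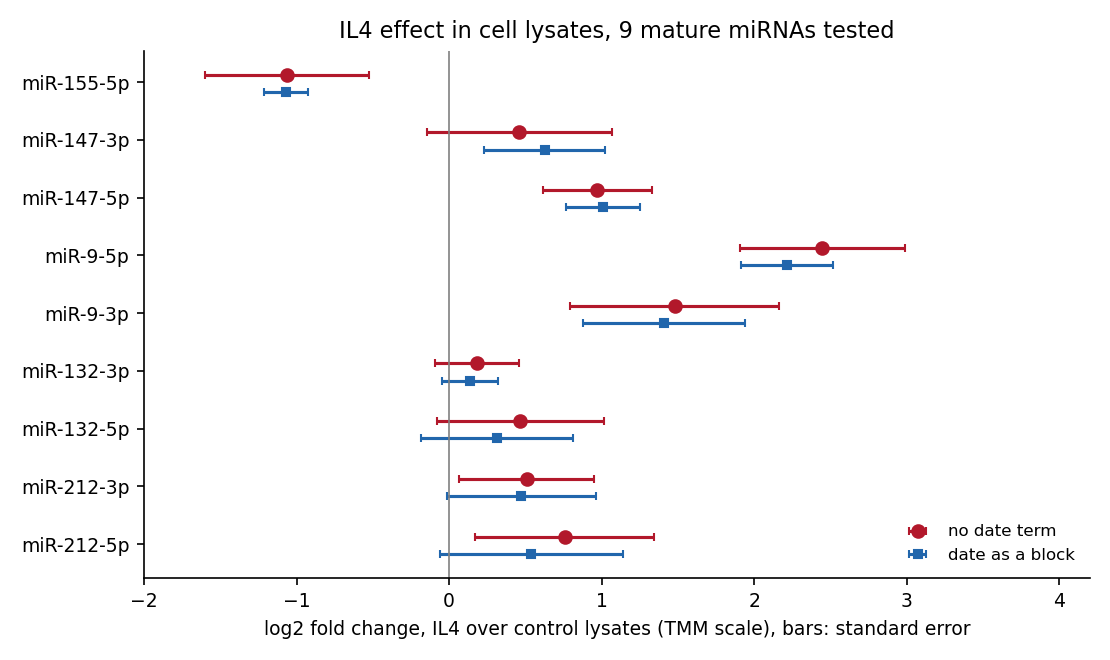
Log2 fold change of the 9 members tested in lysates, IL4 over control, on the TMM scale, with bars for the standard error and with each member fitted without a date term and with date as a block. miR-9-5p has the highest value in both fits, and the standard error of miR-155-5p is 0.54 without the date term and 0.15 with it.

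Both arms of miR-147 had positive values with IL4, and neither was called without the date term. miR-147-5p was at 21.7, 28.7 and 15.2 CPM in lysates with IL4, against 16.2, 14.9 and 6.89 CPM in control lysates, on 38 to 127 counts a library. The lowest IL4 lysate lay below the highest control lysate, and within a date the ratio ran from 1.34 to 2.20. The log2 fold change of miR-147-5p was 0.97 (SE 0.36, 95% interval 0.15 to 1.79, edgeR adjusted p = 0.226), and with date as a block it was 1.01 (SE 0.24, edgeR adjusted p = 0.0308). miR-147-3p had 86, 36 and 25 counts in lysates with IL4, against 66, 68 and 10 counts in control lysates. Its log2 fold change was 0.46 (SE 0.61, edgeR adjusted p = 0.868).

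No arm of miR-132 or miR-212 was called between the lysate groups. miR-132-3p, the more abundant member of the pair, was at 36.6, 31.2 and 48.9 CPM in lysates with IL4, against 41.2, 35.8 and 43.2 CPM in control lysates. The groups overlapped throughout. The log2 fold change was 0.18 (SE 0.27, 95% interval -0.45 to 0.82, edgeR adjusted p = 0.868), and its sign turned with library-size scaling (-0.042) and without IL4 lysate replicate 3 (-0.19). The other 3 arms had log2 fold changes of 0.47 (miR-132-5p, SE 0.55), 0.51 (miR-212-3p, SE 0.44) and 0.76 (miR-212-5p, SE 0.59), with no call. Although both hairpins come from 1 transcript and both 3p arms have 22 bases, miR-132-3p averaged 38.9 ± 9.05 CPM and miR-212-3p 3.68 ± 0.85 CPM in lysates with IL4, against 40.1 ± 3.83 and 3.03 ± 0.65 CPM in control lysates (SD, n = 3 each).

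Scaling shifted all lines by a small amount in lysates. With library size in place of TMM, the median log2 fold change over all lines moved to -0.19, and the split of calls was 8 higher and 6 lower, against 26 and 6 with TMM. With date as a block, 50 lines were called.

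The arms were compared within hairpins, since both arms come from the same precursor and their ratio does not depend on scaling. For miR-155 the 5p arm supplied 6811 of 6812 counts in lysates (99.985%, exact 95% interval 99.918% to 99.9996%) and all 475 counts in exosomes. In the Mir155 hairpin, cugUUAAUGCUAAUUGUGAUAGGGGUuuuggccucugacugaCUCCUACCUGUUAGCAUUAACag, at chr16:84714140-84714204, the 2 arms are in capitals. The 5p arm took 70.4% ± 9.3 of the miR-147 counts in lysates with IL4 and 65.8% ± 11.6 in control lysates. For miR-9 the 5p share was 87.7% ± 2.3 with IL4 and 79.5% ± 10.8 in controls, with the lowest share, 67.7%, in control lysate replicate 2. The 3p arm took 88.5% ± 8.7 of the miR-132 counts with IL4 and 90.8% ± 2.1 in controls, and the 5p arm took 51.8% ± 10.6 of the miR-212 counts with IL4 and 51.4% ± 5.8 in controls (SD, n = 3 each). None of the 5 arm shares differed beyond the spread of the libraries (two-sided exact permutation tests, raw p 0.3 to 1.0, adjusted p = 1.0, where 3 against 3 allows no p under 0.1). Thus miR-212 gave similar counts from both arms in lysates, whereas miR-155 gave almost all from 1 arm.

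**Figure D3:**
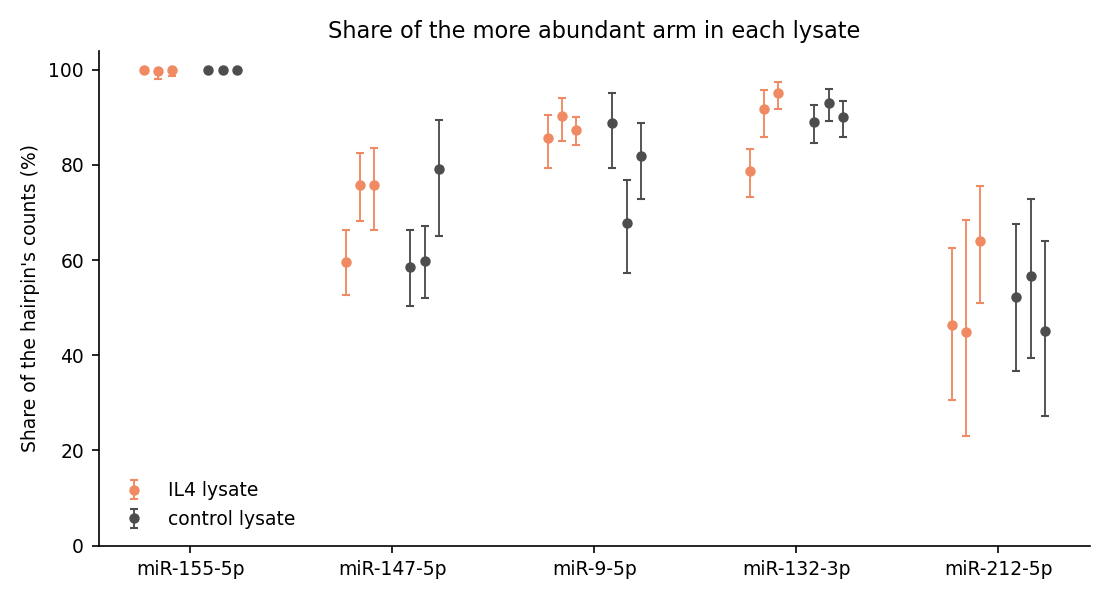
Share of each hairpin's counts that came from the named arm in each lysate, in percent, with lysates with IL4 left of control lysates and bars for the exact 95% interval of each library's counts. miR-155-5p is at or above 99.7% in every lysate, and the points of the 2 groups overlap for the other 4 hairpins.

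In exosomes, the counts limited the comparison. 1 member, miR-155-5p, passed the filter on low counts and was not called, where 0.549% of the 182 tested lines were called in all. It was at 179.9, 375, 459 and 573 CPM in exosomes with IL4 (9, 28, 189 and 44 counts), against 281.5, 680.4, 653 and 820.2 CPM in control exosomes (8, 37, 130 and 30 counts). The groups overlapped. The IL4 library was the lower one at 4 of 4 dates, with 0.551 to 0.703 times the control level. Dates were not taken to pair the exosomes (same-date correlations -0.09 to 0.18), so such tallies over dates are a description only. The log2 fold change was -0.47 (SE 0.40, 95% interval -1.37 to 0.44, edgeR adjusted p = 0.860), and with date as a block it was -0.47 (SE 0.24, adjusted p = 0.366).

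miR-132-3p was below the filter in exosomes. It had 2, 4, 28 and 7 counts in exosomes with IL4 (40.0, 53.6, 68.0 and 91.2 CPM), against 0, 0, 11 and 1 counts in control exosomes (0, 0, 55.3 and 27.3 CPM). The groups overlapped, and the IL4 library was the higher one at 4 of 4 dates, which were not taken as pairs in exosomes. In the fit of all 14 libraries, its log2 fold change between exosome groups was 1.36 (SE 0.69, edgeR adjusted p = 0.534). miR-147-3p had 0, 0, 10 and 3 counts in exosomes with IL4 and no count in the 4 control exosome libraries. The control lysates averaged 7.77 ± 5.21 CPM (SD, n = 3), and at that mean level 2.47 counts would have stood in the control exosomes. A count of 0 in 318399 allows a level of up to 9.42 CPM when 3 counts are taken as the limit, and the exact 95% interval reaches 11.6 CPM, so counting error alone covers the level of the lysates. In the fit with no filter on low counts, exosomes were nevertheless called lower than lysates in controls for miR-147-3p (edgeR adjusted p = 0.0326), where the fitted fold against a group at 0 depends on the prior count and is not given. miR-147-5p had 6 counts in exosomes with IL4 and 2 in control exosomes. miR-132-5p had 2 counts in exosomes with IL4 and 0 in controls, miR-212-3p had 5 and 8, and miR-212-5p had 4 and 1.

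miR-9-5p had 6, 2, 32 and 14 counts in exosomes with IL4 (119.9, 26.8, 77.7 and 182 CPM), against 16, 3, 15 and 8 counts in control exosomes (563, 55.2, 75.4 and 219 CPM). The IL4 library had the higher value at 1 of 4 dates, and the groups overlapped. The log2 fold change between exosome groups was -0.83 (SE 0.85, edgeR adjusted p = 0.896) in the fit of all 14 libraries. Set against the IL4 effect in lysates, the difference of effects was -3.24 on the log2 scale (SE 1.18, edgeR unadjusted p = 0.0152, adjusted p = 0.857), and it was not called. No line was called for this difference (0%) by edgeR, where 14 had an unadjusted p under 0.05. DESeq2 called 0, with 22 at an unadjusted p under 0.05.

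**Figure D4:**
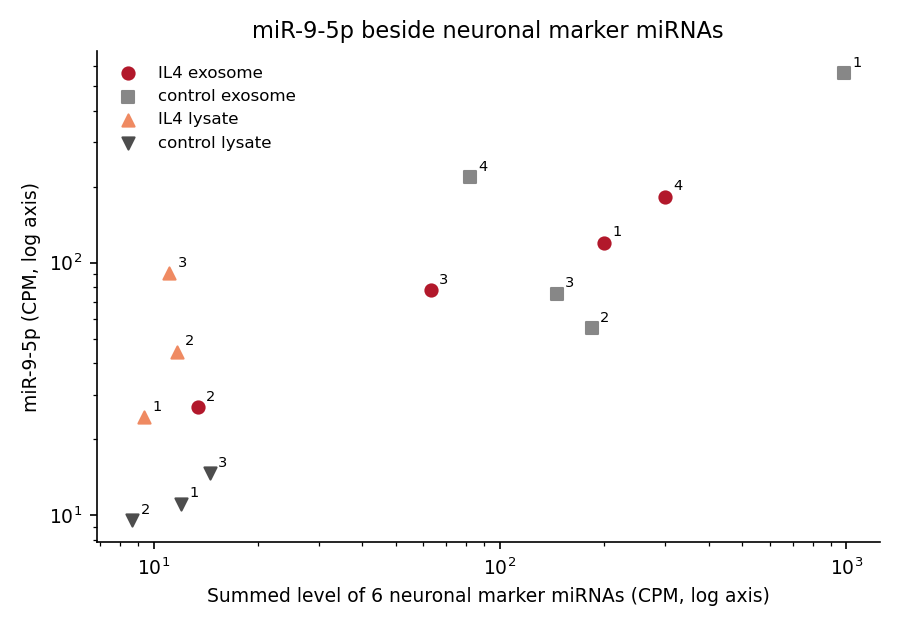
CPM of miR-9-5p (vertical, log axis) against the summed CPM of 6 neuronal marker miRNAs (horizontal, log axis), with 1 numbered point for each library and a marker shape for each of the 4 groups. The lysates lie between 8.69 and 14.5 CPM of the neuronal sum, with the IL4 lysates above the control lysates in miR-9-5p, and control exosome replicate 1 is highest on both axes.

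Exosomes were then compared with lysates of the same treatment, to see which members stand higher in the vesicles. 4 members passed the filter in the fit of all 14 libraries (338 lines), miR-155-5p, miR-9-5p, miR-132-3p and miR-212-3p, and 1 was called higher in each treatment. This lies near the background: 49.4% of all lines were called with IL4, 30.2% as higher in exosomes, and 50.9% were called in controls, 29.3% as higher. The split of calls depended on scaling. With TMM, 61.1% of the calls with IL4 and 57.6% of those in controls were higher in exosomes, and with library size these shares were 91.4% and 88.7%. With DESeq2 they were 67.8% and 70.1%, and with RLE factors in edgeR 68.9% and 69.9%. Library-size scaling also moved the median log2 difference of all lines to 0.68 with IL4 and 0.63 in controls, against -0.01 and -0.18 with TMM. No date is shared between compartments, so compartment and date cannot be told apart.

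miR-155-5p was called higher in exosomes than in lysates with IL4, and not in controls. With IL4 it averaged 397 ± 166 CPM in exosomes (SD, n = 4) and 117 ± 87.7 CPM in lysates (SD, n = 3), and the lowest exosome library lay below the highest lysate. Its log2 difference was 1.22 (SE 0.47, 2.33-fold, edgeR adjusted p = 0.0444). Without 1 library the edgeR call ended in 5 cases, at 1.13 (adjusted p = 0.163) and 1.04 (0.191) without IL4 lysate replicates 2 and 3 in turn, and at 1.34 (0.0691), 1.28 (0.0614) and 1.15 (0.0826) without IL4 exosome replicates 2, 3 and 4 in turn. Without IL4 lysate replicate 1, which had the highest lysate level, it was 1.94 (edgeR adjusted p = 0.0157). In controls it averaged 609 ± 230 CPM in exosomes (SD, n = 4) and 279 ± 207 CPM in lysates (SD, n = 3), with a log2 difference of 0.45 (SE 0.47, 95% interval -0.54 to 1.45, edgeR adjusted p = 0.435). The 2 differences were themselves 0.77 apart on the log2 scale (SE 0.65, edgeR adjusted p = 0.9999), so they were not shown to differ.

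miR-9-5p was called higher in exosomes than in lysates in controls, and not with IL4. In controls all 4 exosome libraries, at 55.2 CPM and above, stood over all 3 lysates, at 14.7 CPM and below. The share of all lines that separate so is not given here. The log2 difference of miR-9-5p was 3.33 (SE 0.90, 10.1-fold, edgeR adjusted p = 0.00611), and it was called under all 11 alternatives, with values of 2.61 to 4.09. The lowest of these was without control exosome replicate 1, where miR-9-5p was highest (edgeR adjusted p = 0.0132), and without control exosome replicate 3 it was 3.99. With IL4 the log2 difference was 0.10 (SE 0.81, edgeR adjusted p = 0.937), the exosome libraries covering 26.8 to 182 CPM and the lysates 24.4 to 90.7 CPM.

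The summed level of the neuronal list was higher in most exosome libraries than in lysates. It came to 199.9, 13.4, 63.2 and 299.8 CPM in exosomes with IL4 (10, 1, 26 and 23 counts), against 985, 184, 146 and 82.0 CPM in control exosomes (28, 10, 29 and 3 counts). Control exosome replicate 1 was the highest in both measures, and the exosome sums exceeded 14.5 CPM, the highest lysate, in 7 of 8 libraries. Of the 6 listed miRNAs, miR-219a-5p had the most counts, 44 in exosomes with IL4 and 33 in control exosomes. miR-124-3p had 6 and 17, the latter in 2 libraries and at up to 492.7 CPM in 1 of them. miR-124-5p had 0 in both groups. Not every listed miRNA was higher there: miR-138-5p had a pooled level of 4.89 CPM in exosomes with IL4 and 5.56 CPM in lysates with IL4, and of 6.28 CPM in control exosomes and 4.60 CPM in control lysates. The erythroid, lymphocyte, endothelial, epithelial and stromal lists also summed higher in exosomes than in lysates. The part of these and of the neuronal markers in the difference of miR-9-5p or miR-155-5p was not tested.

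**Figure D5:**
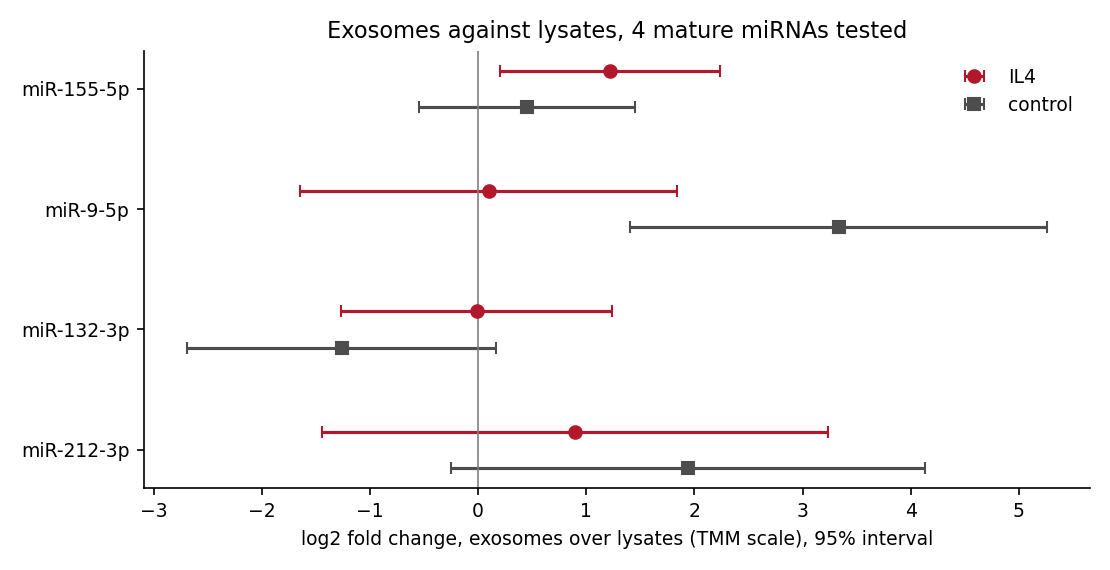
Log2 difference between exosomes and lysates, TMM scale, with 95% intervals, for the 4 members tested, with IL4 (circles) and in controls (squares). The intervals of miR-155-5p with IL4 (at 1.22) and of miR-9-5p in controls (at 3.33) lie above 0, and the other 6 cross 0.

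miR-132-3p showed no called difference between compartments. With IL4 its log2 difference was -0.01 (SE 0.59, edgeR adjusted p = 0.988), and its sign turned to positive in 9 of 11 alternatives. In controls it was -1.26 (SE 0.67, edgeR adjusted p = 0.125), and without control exosome replicate 3, which held 11 of the 12 counts, it was -2.75 (edgeR adjusted p = 0.0292). miR-212-3p, which shares its seed, was at 0.89 with IL4 (SE 1.09) and 1.94 in controls (SE 1.02, edgeR adjusted p = 0.124), on 5 and 8 exosome counts. It was called in controls under 2 of 6 alternatives, among them library-size scaling (2.76, edgeR adjusted p = 0.0427). miR-212-3p passed the filter only through exosome libraries. It stood at 40.2 CPM in IL4 exosome replicate 2 (3 counts) and 35.2 CPM in control exosome replicates 1 and 3 (1 and 7 counts). No lysate exceeded 4.48 CPM. miR-147-5p and miR-132-5p, with 558 and 157 counts over the 14 libraries against 123, did not pass. Its positive differences are therefore a description only.

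The members were set beside 12 other miRNAs known to be induced by NF-kB or by lipopolysaccharide, a list drawn up with earlier results of these data known. In lysates 10 were tested, and 3 rose and 2 fell with IL4, where 5.87% and 1.35% of all lines did, with a median log2 fold change of 0.15. Those that rose were miR-146b-5p (2.76), miR-146b-3p (2.56) and miR-21a-3p (1.16), and those that fell were miR-146a-5p (-2.26) and let-7e-5p (-1.32). Of 12 alternatives, the call ended in 8 for miR-21a-3p, 5 for let-7e-5p, 3 for miR-146a-5p and 1 for miR-146b-5p, and it ended in 2 of 11 for miR-146b-3p. miR-146a and miR-146b repress Irak1 and Traf6, which carry Toll-like receptor signals. In exosomes 8 were tested and 1 was called, miR-146b-5p (higher, 1.65), and its call ended in 4 of 14 alternatives. It was also the 1 line called of all 182 tested (0.549%), so that share is no separate background. Between compartments 9 were tested: 2 were higher and 4 lower in exosomes with IL4, and 0 were higher and 4 lower in controls. Of all lines tested with IL4, 30.2% were higher and 19.2% lower in exosomes, and in controls 29.3% were higher and 21.6% lower. With IL4 alone, miR-125a-5p (1.36) and let-7e-5p (1.15) were called higher and miR-146b-5p (-1.56) lower. Their calls ended in 0, 5 and 0 of 11 alternatives in turn. In controls alone, miR-21a-3p was called lower (-2.20), and its call ended in 1 of 11. miR-221-3p, miR-222-3p and miR-21a-5p were lower in exosomes under both treatments, although of 11 alternatives the call ended in 9 with IL4 and 7 in controls for miR-222-3p, in 1 and 3 for miR-221-3p, and in 0 and 1 for miR-21a-5p.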

How the data were processed

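Small RNA libraries were made with a NextFlex kit, per the labels' protocols. Adapter trimming with cutadapt and the genome build mm10 are named in the submitters' processing notes, while the aligner and the counter are not stated. The deposited table holds raw counts per mature miRNA for 14 libraries and 1250 lines, and columns were matched to samples by title. The 10 members and all marker lists were chosen with earlier results of these data known. Other miRNAs were named by rule: a list of 12 induced by NF-kB or lipopolysaccharide, and the 3 lines most alike to a member in lysates. CPM is counts per 1000000 of the table's total in a library. Tests were edgeR 4.0.16 quasi-likelihood fits in R 4.3.3 (filterByExpr, TMM, Benjamini-Hochberg adjusted p at or under 0.05) over all lines that passed the filter. Lysates (6 libraries, 443 lines) and exosomes (8 libraries, 182 lines) were fitted apart, and exosomes against lysates in 1 fit of 14 libraries (338 lines). SE is the log2 fold change divided by the root of F. The code was tested on simulated data. Alternatives were DESeq2 1.42.0, RLE and library-size scaling, no filter, a date block and leaving out each library. The fits without 1 library had no date term. Same-date lysates deviated together from their group means (correlations 0.35 to 0.73, all over 0.1), although IL4 replicate 2 correlated more with control replicate 3 (0.39) than with its own date. Same-date exosomes gave -0.09 to 0.18. Dates were taken to pair the lysates and not the exosomes. All pairs of libraries within a group differed beyond counting noise (chi-square over its degrees of freedom was at least 21.0). Intervals on counts and shares are exact at 95% and cover counting error only, since molecular identifiers were not used here. Sequences and positions are from RefSeq GRCm38.p6 and gene overlaps from the GENCODE annotation of GRCm38.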

Additional observations from a re-analysis of the deposited data

Results flagged for a closer look

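In groups of 4 exosome libraries, 1 library stood far from the other 3 (Dixon's gap test) in 4 of the 16 sets of member values looked at, where chance gives about 1 in 20 for continuous values. That rate does not apply to these sparse counts, since 3 zeros and 1 other value always meet the criterion, as in 3 of the 4 sets. miR-147-5p was at 36.8 CPM in control exosome replicate 2, on 2 counts, and at 0 in the other 3. miR-9-3p was at 105.6 CPM in control exosome replicate 1, on 3 counts, with the other 3 at 0, 0 and 15.1 CPM. miR-212-5p was at 52.1 CPM in IL4 exosome replicate 4, on 4 counts, and at 5.02 CPM in control exosome replicate 3, on 1 count, with 0 in the other 3 libraries of each group. All 4 rest on 4 counts or fewer.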

How the results depend on the processing

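Over the 22 tested member values and 261 alternatives, direction and side of the threshold were kept in 224, a call was lost in 13, gained in 6 and the sign turned in 18. The causes were not tested. Lines called in lysates numbered 14 with library-size scaling, 50 with the date as a replicate block, 4 in the fit of 14 libraries and 2 to 34 with 1 library left out, against 32. In exosomes they numbered 6 with DESeq2, 0 with library size, 12 with no filter and 0 to 2 with 1 library left out, against 1. For the difference of effects they numbered 3 with no filter. With the date as a replicate block, miR-155-5p (-1.07, edgeR adjusted p = 0.00221) and miR-147-5p (1.01, 0.0308) gained calls in lysates and no member lost one. For exosomes against lysates, no paired analysis was possible because these share no date.

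miR-9-5p in lysates lost its call with library size (2.17) and in the fit of 14 libraries (2.41), and with 1 library left out it covered 1.64 to 2.84. miR-155-5p in exosomes against lysates with IL4 lost its call with no filter (0.92) and covered 1.04 to 1.94 with 1 library left out. miR-155-5p in lysates was called with no filter (-1.09, adjusted p = 0.00456). Signs turned for 4 other members in lysates. miR-132-3p was at -0.042 with library size and -0.19 (without IL4 lysate replicate 3) to 0.33 with 1 library left out. The ranges with 1 library left out were -0.0092 (without control lysate replicate 3) to 0.75 for miR-147-3p, -0.33 (without IL4 lysate replicate 1) to 0.67 for miR-132-5p and -0.16 (without IL4 lysate replicate 3) to 1.09 for miR-212-5p. In exosomes against lysates with IL4, miR-9-5p turned with no filter (-0.10) and covered -0.14 to 1.01 with 1 library left out. There miR-132-3p was at 0.29 with DESeq2, 0.28 with RLE, 0.74 with library size and -0.0043 to 0.44 with 1 library left out. miR-155-5p in controls turned with no filter (-0.034). Arm shares with 1 lysate left out covered -5.55 to 2.65 percentage points for miR-132-3p and -5.73 to 3.81 for miR-212-5p. Beside miR-155-5p, the members had at most 54 counts in an exosome group, which limits what could be compared there.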

Other observations

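Over the 6 lysates, the level of each member was correlated with that of every other line tested, as a description and with no test, since libraries share groups, dates and depth. The lines most alike to miR-9-5p were miR-378a-3p (r = 0.98), miR-342-5p (0.97) and miR-100-5p (0.97). Those most alike to miR-155-5p were miR-98-3p (0.96), miR-181a-2-3p (0.96) and miR-3968 (0.94), and those most alike to miR-132-3p were miR-29b-3p (0.97), miR-29a-3p (0.92) and miR-212-5p (0.88). The r between the arms of 1 hairpin was 0.85 for miR-9, 0.87 for miR-212, 0.79 for miR-147 and -0.27 for miR-132. Spearman's rank correlation of the arms was 0.83, 0.54, 0.60 and 0.09 in the same order. For miR-132-3p and miR-212-5p it was 0.26. Over all pairs of lines, the central 90% of r values ran from -0.79 to 0.80, and the arms of miR-147 and miR-132 lie within that range. The lines named as most alike lie above that range because they are the 3 highest of 442 for each member.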
